A study of Mus musculus with 5 samples.

Results

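*Ctnnb1*, *Axin2*, *Apc*, *Nkd1*, *Myc*, *Tle1*, *Tle2*, *Tle3* and *Tle4* are 9 genes that encode partners, regulators and a target of Wnt signaling, and the accessible chromatin around them was described in naïve CD8+ T cells with and without the transcription factors Tcf1 and Lef1. All DNase-seq peaks were taken whose summit, the base covered by the most fragments, lay in the body of 1 of these genes or within 50 kb on either side of it in the mm9 annotation. This gave 43 of 31116 peaks in WT cells and 32 of 25525 peaks in dKO cells, or 75 of 56641 in all. Both groups of mice carried the hCD2-Cre transgene, which acts mainly in mature peripheral T cells, and a Rosa26 GFP reporter. In WT mice (genotype wild type) *Tcf7*, the gene for Tcf1, and *Lef1* were intact, whereas in dKO mice (genotype Tcf1-/-Lef1-/-) both genes were floxed. The mice were on the C57BL/6 background, were 6 to 12 weeks old and received no treatment, and the cells were sorted from the spleen as GFP+ and TCRbeta+ CD8+ cells with a CD62Lhi, CD44lo-med surface. DNase-seq, in which the enzyme DNase I cuts accessible DNA and the small products are sequenced, was performed on 3 WT and 2 dKO replicates, and the authors pooled the replicates before they called peaks. Each genotype is thus represented by 1 list without replicate values, so no spread between replicates and no test between genotypes could be given.

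In canonical Wnt signaling, β-catenin (the product of *Ctnnb1*) is marked for destruction by a complex built on the scaffolds Axin and Apc, and a Wnt ligand at the cell surface releases it to the nucleus, where it binds transcription factors of the Tcf and Lef family. In the absence of β-catenin, the same factors can bind corepressors of the Tle (Groucho) family. *Axin2* and *Nkd1* are inhibitors that the pathway itself induces, and *Myc*, a regulator of cell growth, is a classical target in epithelial cells. In T cells, Tcf1 and Lef1 are known for their part in thymic development and in the identity of CD8+ cells.

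Peaks were called ChrAcc sites by the study's criteria, a fold enrichment over local background of at least 4 with p under 1e-05 and q under 0.05. These were met by 28472 WT and 24363 dKO peaks of the series. The WT pool was 1.35 times as deep as the dKO pool (83923734 and 62242963 fragments kept), and fold enrichment depends on depth. Sites were therefore ranked by fold enrichment within their own list, with percentile 100 for the highest, and a site was called shared where WT and dKO sites overlapped by at least 1 bp. The pileup is given beside the rank and counts how many fragments covered the summit. A ChrAcc site lay within 1 kb of a start of 10 of 10 CD8 T cell markers in WT and of 9 in dKO cells (*Cd3d* had none), of 1 of 3 NK cell and 1 of 5 myeloid markers in each list, and of none of the CD4 or regulatory T, B cell and erythroid markers. The myeloid marker was not the same gene, with *Itgam* in WT (percentile 34.8) and *Spi1* in dKO cells (percentile 3.55). The deletion itself was not checked by these data, since *Tcf7* (10 WT and 11 dKO sites) and *Lef1* (15 and 11) had sites in both lists and the places of the floxed exons were not used here.

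The sequences on which the results turn are given first, from the mm9 genome and on its plus strand. The first set is from the regions that were absent from the dKO list or ranked lower in it. These are the stretch of the *Axin2* promoter site before the gene's start (chr11:108781586-108781662, capitals mark the last bases before the start), the part of the first *Axin2* intron opened in WT cells (chr11:108782034-108782113), a site in intron 4 of *Tle4* (chr19:14662779-14662987) and a site in the 5′ flank of *Tle2* (chr10:80989573-80989774). Capitals in the last 3 mark the bases around the WT summit.
Axin2 promoter: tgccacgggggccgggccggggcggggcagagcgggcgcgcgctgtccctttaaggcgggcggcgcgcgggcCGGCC
Axin2 intron 1: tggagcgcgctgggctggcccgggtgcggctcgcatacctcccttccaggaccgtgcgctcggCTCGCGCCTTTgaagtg
Tle4 intron 4: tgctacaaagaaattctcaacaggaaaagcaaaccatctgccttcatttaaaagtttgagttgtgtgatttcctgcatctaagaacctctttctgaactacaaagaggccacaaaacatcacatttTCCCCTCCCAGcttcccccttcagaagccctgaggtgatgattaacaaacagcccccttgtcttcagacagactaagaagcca
Tle2 upstream: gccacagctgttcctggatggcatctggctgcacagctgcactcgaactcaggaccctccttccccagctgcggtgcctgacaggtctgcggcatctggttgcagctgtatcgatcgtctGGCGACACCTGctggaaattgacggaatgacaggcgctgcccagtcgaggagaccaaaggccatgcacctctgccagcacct
These 4 stretches differed in base composition. GC content was 85.7% in the *Axin2* promoter stretch, 71.2% in the *Axin2* intron stretch, 60.9% upstream of *Tle2* and 43.1% in the *Tle4* intron. Within 100 bp of the WT summit it was 66.7%, 63.7%, 59.2% and 42.3%, in the same order.

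The second set shows the letters ATCAAAG, a core of the consensus to which Tcf1 and Lef1 bind, at the 4 loci that had them within 100 bp of a summit. They lie in exon 1 of *Axin2* (chr11:108781730-108781758, on the minus strand, so that the plus strand reads CTTTGAT), in an exon of *Aes* upstream of *Tle2* (chr10:81024010-81024038), in intron 8 of *Tle4* (chr19:14578818-14578846) and at the *Tle1* promoter (chr4:71862264-71862292), with the match in capitals. The last pair shows a core of the motif of CTCF, a factor that organizes chromatin loops, upstream of *Ctnnb1* (chr9:120824438-120824467, minus strand) and of *Myc* (chr15:61814977-61815006), each near a summit.
Axin2 exon 1: agccggctgcgCTTTGATaaggtcctggc
Aes exon: cctgtgaccgcATCAAAGatgagttccag
Tle4 intron 8: aagtgacactgATCAAAGtctccatattc
Tle1 promoter: ccgagctgtcaATCAAAGtaacgtggggc
Ctnnb1 upstream: ccaaacagcGCCACCTGCTGGgaagcaaat
Myc upstream: tctctgtggCCAGTAGAGGGCacacttact

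The 9 loci kept most of their sites in dKO cells. In all, 37 of the 43 WT peaks and all 32 dKO peaks met the criteria, and the 6 WT peaks below them lay at *Myc* (4), *Tle1* (1) and *Tle4* (1). The sites made up 43 separate regions, of which 26 were shared, 11 were found in WT cells only and 6 in dKO cells only. The 11 WT-only sites were 29.7% of the WT sites, beside 27.6% of all WT sites of the series, and the 6 dKO-only sites were 18.8% of the dKO sites, beside 14.4% of all dKO sites. Both shares were near the share over the whole list, so the loci as a group did not stand apart in how many sites were found in 1 list only. Found in 1 list only means that the other pool, of another depth, held no overlapping called site, and is not a tested difference. The paper instead tested replicate counts over the merged ChrAcc sites of both genotypes, with limits on fold change and false discovery rate. By that unlike measure it called a much smaller share of them different. The loci differed from each other in size. *Tle2* had 11 WT and 8 dKO sites, *Tle3* had 6 and 6, *Tle4* had 6 and 4, *Apc* had 5 and 3, and *Axin2* had 4 and 3. *Ctnnb1* and *Nkd1* had 2 WT and 3 dKO sites each, *Tle1* had 1 in each list, and *Myc* had none in WT and 1 in dKO cells.

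**Figure D1:**
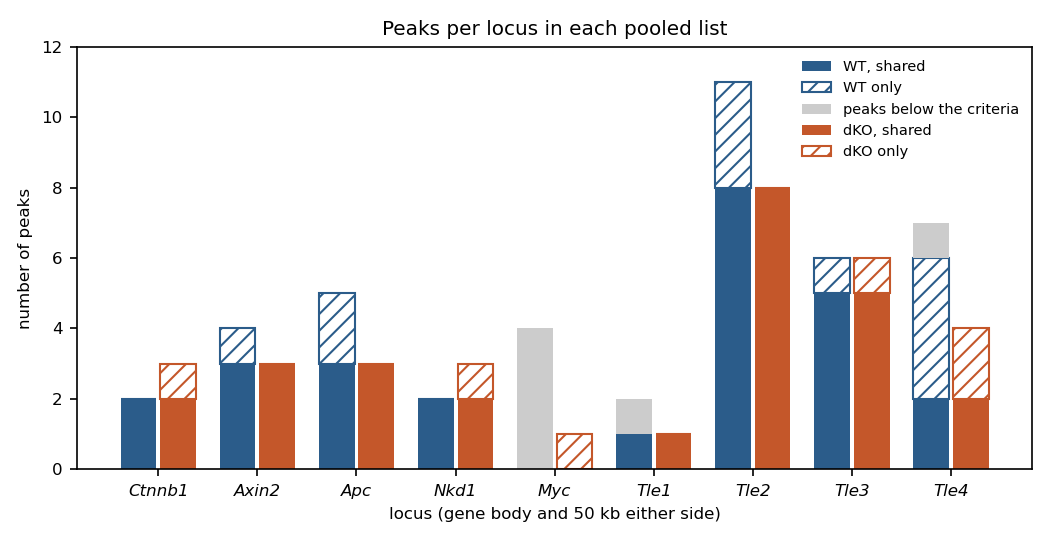
Number of DNase-seq peaks (vertical axis) at each locus, the gene body with 50 kb on either side, in the WT (blue) and dKO (orange) pooled lists; filled bars are shared sites, hatched bars are sites found in that list only and gray bars are peaks below the criteria. WT-only sites were most numerous at *Tle4* (4 of 6 WT sites) and *Tle2* (3 of 11), and *Myc* is the locus with 4 WT peaks that all lay below the criteria.

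At the 26 shared sites, ranks differed by 10 points or less in most cases. The difference of percentile, dKO minus WT, ran from −28.6 to 14.0 with a median of −0.062, and 17 of the 26 sites lay within 10 points, beside 52.5% of all shared sites of the series. Over all 20533 shared regions of the series the median was −2.56, with 58.7% lower in dKO cells. The percentile was lower in dKO cells by at least 20 points at 2 of the 26 sites, beside 13.7% of all shared sites, and higher by at least 20 points at none, beside 6.75%. The sites past −20 points were the *Axin2* promoter and the promoter of *Ankrd24* in the 3′ flank of *Tle2*. The median rank of all sites of the loci was percentile 50.4 in the WT and 53.9 in the dKO list.

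**Figure D2:**
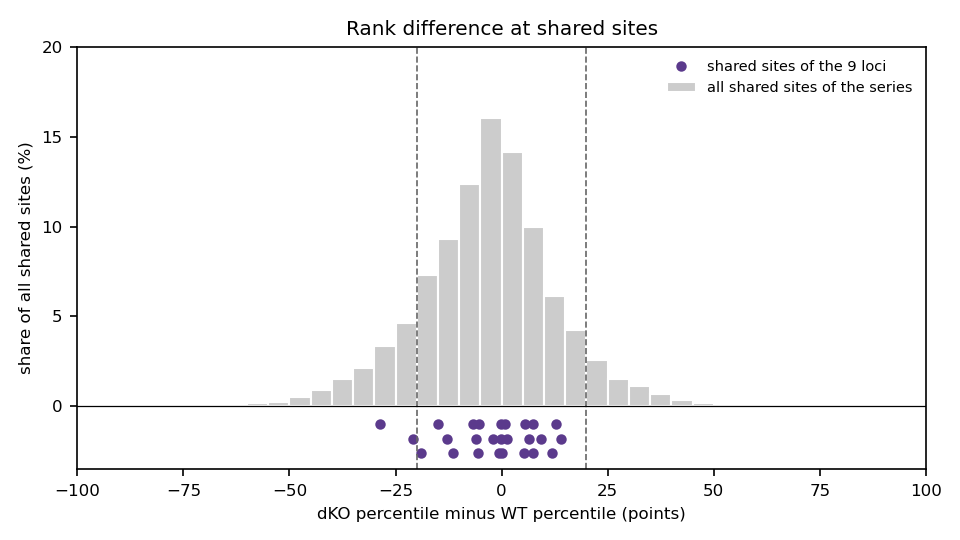
Distribution of the difference of percentile, dKO minus WT in points (horizontal axis), over all 20533 shared sites of the series (gray bars, share in percent) with the 26 shared sites of the 9 loci as purple points below the zero line, set at 3 heights only to keep them apart. Dashed lines mark −20 and 20 points; 2 of the points lie left of −20 and none lies right of 20.

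*Ctnnb1*, which encodes β-catenin, kept its promoter site at the same rank. The gene lies at chr9:120838334-120869625 on the plus strand, and its promoter site (chr9:120842354-120842659 in WT cells), 76 bp before the start of transcript Ctnnb1-001, was at percentile 52.4 in the WT and 52.6 in the dKO list, with pileups of 58 and 42. This promoter is rich in G and C, with a GC content of 78.1% around the summit. A site 18.1 kb upstream of that start (chr9:120824342-120824476), which holds the CTCF-type match printed above, was at percentile 26.5 in the WT and 33.0 in the dKO list. A further site 30.7 kb upstream (chr9:120811803-120811938) was called in dKO cells only, at percentile 8.18 with a pileup of 19, which corresponds to 25.6 fragments at the depth of the WT pool. The lowest pileup of any WT site was 21, so this difference lies close to the limit of what could be called. No site was called within the gene downstream of its promoter in either list.

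*Axin2*, a scaffold of the destruction complex and an inhibitor that Wnt signaling induces, had lower-ranked or missing sites at its start in dKO cells, whereas its other sites ranked alike in both lists. The gene lies at chr11:108781663-108812097 on the plus strand. Its promoter site (chr11:108781586-108781836 in WT, chr11:108781591-108781767 in dKO cells) had its summit in the untranslated part of exon 1, 54 bp after the start in WT and 72 bp after it in dKO cells. It was at percentile 58.1 in the WT and 29.5 in the dKO list, a difference of −28.6 points, the most negative among the 26 shared sites. In a pool of cells, a site open in fewer cells and a site less open in every cell cannot be told apart. The pileup was 68 in WT, which corresponds to 50.4 fragments at the depth of the dKO pool (95% exact Poisson interval 39.2 to 63.9), and 27 in dKO cells (17.8 to 39.3). The intervals, which cover counting error only and not the spread between mice, met at their ends. They were scaled by depth only. Over all shared sites of the series the median log2 ratio of dKO to WT pileup was −0.565, a larger decrease than depth alone gives. Centred on that median, the log2 ratio at this site was −0.77. The fold enrichment was 9.38 in WT and 6.54 in dKO cells.

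A second *Axin2* site, in intron 1 (chr11:108782034-108782161), was found in WT cells only. Its summit lay 439 bp after the start of transcript Axin2-001 and 12 bp before the start of transcript Axin2-005, and it ranked at percentile 45.2. Its pileup was 61, or 45.2 fragments at the depth of the dKO pool (interval 34.6 to 58.1). The lowest pileup of any dKO site was 16, seen at *Nkd1*, where the local background plus 1 fragment was 4.22. At the *Axin2* intron site the WT background plus 1 was 7.83, so the limit for a call may be higher there. No dKO peak of any strength overlapped the *Axin2* intron site. Both sites near the start of *Axin2* were thus lower or not called in dKO cells.

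The remaining *Axin2* sites did not share this difference by rank of fold enrichment. The highest-ranked site of the locus, 9.21 kb upstream of the start (chr11:108772314-108772547), was at percentile 83.4 in the WT and 82.8 in the dKO list, with pileups of 105 and 60. A site in intron 2 (chr11:108786661-108786766) was at percentile 60.0 and 65.3, with pileups of 69 and 42. Other rankings moved these sites. Ranked by −log10 p, the differences were −7.996 points upstream and −5.72 in intron 2, and ranked by pileup they were −11.9 and −13.6, beside −36.7 and −42.1 at the promoter. In lists of the 20000 peaks with the highest −log10 p they were 2.57 and 14.7 points, beside −26.2 at the promoter. Among the printed sequences, the ATCAAAG match of the promoter site lies on the minus strand at chr11:108781741-108781747, 27 bp from the WT summit and 9 bp from the dKO summit.

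*Apc*, the other scaffold of the destruction complex, kept its 3 strong sites. The gene lies at chr18:34380578-34481843 on the plus strand, and its promoter site, 75 bp before the start of Apc-001 in WT cells, was at percentile 78.2 in the WT and 72.8 in the dKO list, with pileups of 97 and 58. A site in intron 1, 38.4 kb into the gene, was at percentile 79.6 and 73.6. The highest-ranked site of the locus, at the promoter of *Srp19* downstream of *Apc*, was at percentile 86.8 and 80.02. All 3 were thus a little lower in dKO cells, by 5.49 to 6.74 points, which is less than the 20 points used here. The WT-only sites of the locus were weaker. The one in intron 1, 661 bp after the start of Apc-001, was at percentile 18.7 with a pileup of 42, and the one 182 bp before a start of *Srp19* was at percentile 23.1 with a pileup of 37.

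*Nkd1*, an inhibitor that binds the Dishevelled proteins which relay the Wnt signal, had no ChrAcc site at its promoter or in its body in either list. The gene lies at chr8:91045243-91118786 on the plus strand, and its 5 peaks all lay downstream of it. The highest-ranked one in both lists was the promoter of *Snx20*, 41.3 kb downstream (chr8:91159946-91160212), at percentile 95.04 in the WT and 94.98 in the dKO list, with pileups of 144 and 94. A site 26.8 kb downstream (chr8:91145419-91145599) was at percentile 47.9 and 55.3. The dKO-only site (chr8:91142705-91142842) was at percentile 0.505 with a pileup of 16, the lowest pileup of any dKO site.

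At *Myc* the criteria decided the call, as they also did at 1 site in intron 8 of *Tle4*. The gene lies at chr15:61816946-61821929 on the plus strand. In WT cells 4 peaks were present within 3 kb of its start, and all were below a fold enrichment of 4. Their fold enrichments were 3.83 at 1.94 kb before the start, 2.63 at 407 bp before it, 3.39 in the untranslated part of exon 1 and 2.96 in the coding part of exon 2, with pileups of 43, 32, 41 and 36. The local background of these peaks, plus 1 fragment as MACS2 adds it, was 11.5 to 12.6 fragments, beside a median of 6.74 over all WT peaks. The background around the start of *Myc* was thus higher than at the median WT peak.

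In dKO cells a single *Myc* peak was called, at the place of the first of these WT peaks (chr15:61814948-61815141, 1.94 kb before the start). It met the criteria with a fold enrichment of 5.08, a percentile of 12.6 and a pileup of 36. Its background plus 1 was 7.29, beside a median of 4.97 over all dKO peaks. At the depth of the WT pool the dKO pileup corresponds to 48.5 fragments (interval 34.0 to 67.2), and the WT pileup there was 43. The site is therefore called in dKO cells only, although peaks at the same place with overlapping counting intervals were present in both lists. It holds the CTCF-type match printed above, 16 and 17 bases before the WT and dKO summits. No peak of the dKO list lay at the start itself or in exons 1 and 2, where the pileups of the WT peaks, at the depth of the dKO pool, would be 23.7 to 30.4 fragments.

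**Figure D3:**
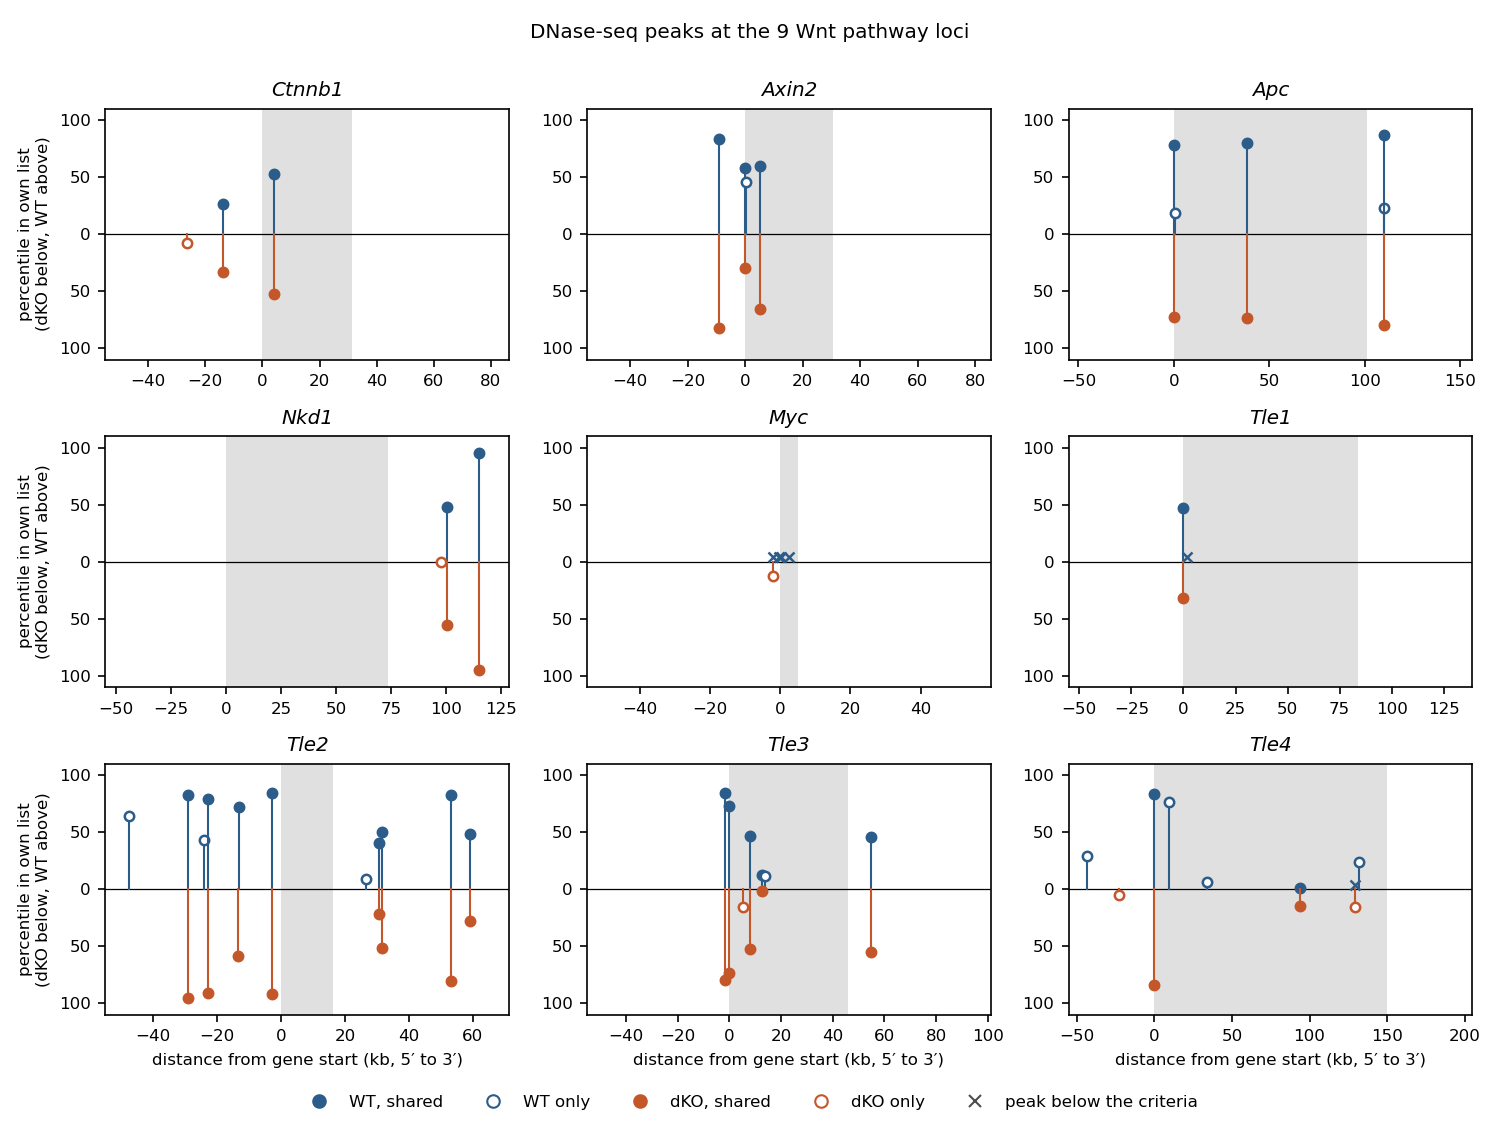
Peaks at the 9 loci by distance of their summit from the start of the gene in kb, drawn in the direction of transcription, with the gene body shaded; height is the percentile of fold enrichment in the own list, upward for WT (blue) and downward for dKO (orange). Filled points are shared sites, open points are sites found in that list only and crosses, drawn at a fixed height, are peaks below the criteria. The open WT points at the start of *Axin2* (percentile 45.2), in the body of *Tle4* (76.1) and upstream of *Tle2* (64.3) have no dKO counterpart, and the body of *Nkd1* holds no peak.

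The Tle genes encode corepressors through which Tcf and Lef factors can silence genes. Their promoters were not alike in this assay. *Tle1*, *Tle3* and *Tle4* had a site within 1 kb of a start in both lists, and *Tle2* had none in either.

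*Tle1* (chr4:71778176-71861953, minus strand) had a single site, its promoter. This wide site (chr4:71861903-71862364 in WT cells) was at percentile 46.9 in the WT and 31.8 in the dKO list, a difference of −15.1 points. Its pileups were 108 and 67, and the WT value corresponds to 80.1 fragments at the depth of the dKO pool (interval 65.7 to 96.7), beside 51.9 to 85.1 for the dKO pool. These intervals overlapped, and the difference is below the 20 points used here. The second *Tle1* peak, in intron 2 in WT cells (chr4:71860167-71860266), was below the criteria, with a fold enrichment of 3.76 and a pileup of 50. The ATCAAAG match of the promoter (chr4:71862275-71862281) lies inside the peak in both lists, 173 bases from the WT summit and 88 from the dKO summit.

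*Tle3* (chr9:61220190-61266297, plus strand) kept its strong sites. The site just before its start (chr9:61219981-61220231), which also lies close to the start of the neighboring *Gm10655*, was at percentile 73.3 in both lists with pileups of 147 and 87. The highest-ranked site of the locus, 1.73 kb before its nearest start (chr9:61218287-61218574), was at percentile 84.6 in the WT and 79.2 in the dKO list, with pileups of 173 and 93. Intron 4 held 4 weaker regions. One of them was called in dKO cells only (chr9:61225646-61225789, percentile 15.3) and another in WT cells only (chr9:61233748-61233896, percentile 11.4), while the shared ones were at percentiles 46.7 and 12.7 in the WT and 52.1 and 1.33 in the dKO list. A site downstream of the gene was at percentile 46.0 and 55.3, within 10 points.

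*Tle4* (chr19:14522562-14672473, minus strand) had the highest-ranked WT-only site of all 9 loci, while its promoter site was shared. The promoter site was wide in both lists (635 bp for WT, 624 bp for dKO) and ranked at percentile 83.2 and 84.3, with pileups of 196 and 131, the highest of any peak of the 9 loci in either list. The WT-only site (chr19:14662779-14662987) lies in intron 4, 9.56 kb into the gene, and ranked at percentile 76.1 with a fold enrichment of 11.9. Its pileup of 82 corresponds to 60.8 fragments at the depth of the dKO pool (interval 48.4 to 75.5), and no dKO peak of any strength overlapped it. Among all WT sites at percentile 70 or above, 5.57% overlapped no dKO site. The sequence of this site, printed above, holds no exact match to the motifs searched within 100 bp of its summit. Near matches were not searched.

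The other sites of *Tle4* were weak. WT-only sites in intron 11, in intron 5 and 43.7 kb upstream were at percentiles 23.6, 5.91 and 28.7, and dKO-only sites in intron 8 and 22.8 kb upstream were at 15.6 and 5.39. At the dKO-only site in intron 8 (chr19:14543365-14543511), the WT list held a peak with a fold enrichment of 3.57, just below the criteria. A second region of intron 8 counts as shared because the WT site (chr19:14578700-14578820) and the dKO site (chr19:14578467-14578700) have 1 base in common. Their summits lay 277 bp apart, and their percentiles were 0.731 and 14.7. The ATCAAAG match printed for this region (chr19:14578829-14578835) lies 54 bp from the WT summit, just outside the WT peak, and over 100 bp from the dKO summit.

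*Tle2* (chr10:81037306-81053590, plus strand) lies in a gene-dense region, where 6 other protein-coding genes start within the 50 kb on either side of it. Neither list held a site within 1 kb of its own starts. The nearest one and the highest-ranked one in WT cells, 2.81 kb before its nearest start (chr10:81034360-81034614), was at percentile 84.0 in the WT and 91.5 in the dKO list, with pileups of 111 and 81. The highest-ranked dKO site of the locus was the promoter of *Gna11* (chr10:81007840-81008299), at percentile 82.8 and 95.8. The promoter of *Aes*, which encodes a short relative of the Tle proteins, was at percentile 71.8 and 58.9, with pileups of 95 and 47. Its ATCAAAG match (chr10:81024021-81024027) lies 22 bases from the WT and 70 from the dKO summit.

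The WT-only sites of the *Tle2* locus were at percentiles 64.3, 42.7 and 8.79. The first (chr10:80989573-80989774), printed above, lies 2.73 kb before the start of *Gna15* and 48.6 kb before the start of Tle2-001. Its pileup was 56, or 41.5 fragments at the depth of the dKO pool (interval 31.4 to 53.9), and no dKO peak overlapped it. The second (chr10:81013130-81013233), with a CTCF-type match, had a pileup of 70, or 51.9 fragments at that depth. The third was the promoter of *Tle6*, another relative of the Tle genes, with a pileup of 39. The promoter of *Ankrd24* (chr10:81096287-81096592) was at percentile 48.8 in the WT and 27.9 in the dKO list, a difference of −20.8 points. Its pileups were 49, which corresponds to 36.3 fragments at the depth of the dKO pool (interval 26.9 to 48.0), and 26 (interval 17.0 to 38.1), so that the counting intervals overlapped. In lists of the 20000 peaks with the highest −log10 p the difference was −14.9 points, and the site no longer passed 20 points.

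**Figure D4:**
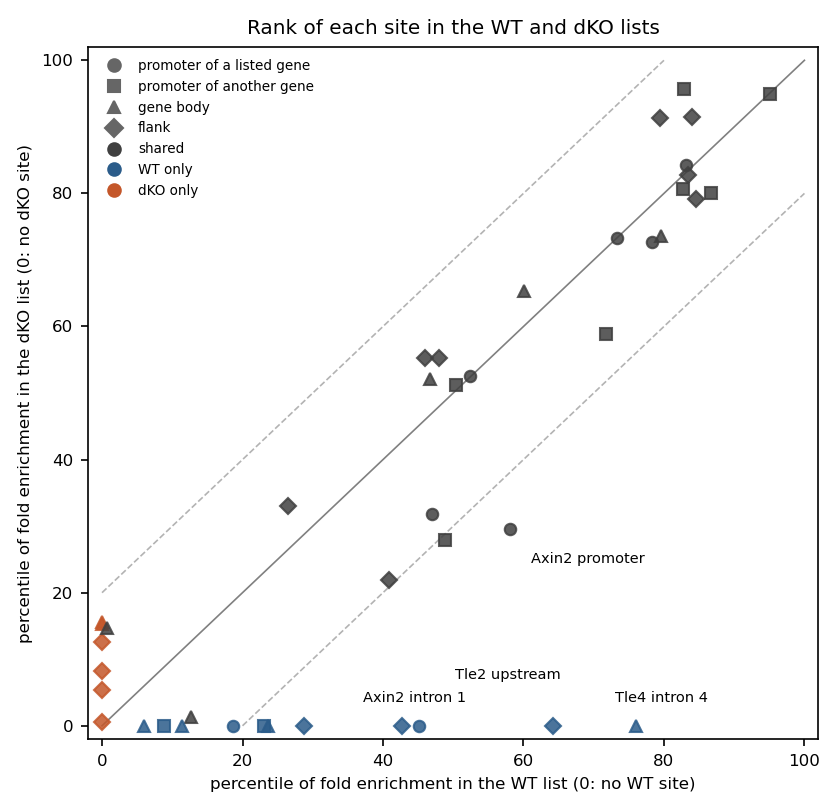
Percentile of fold enrichment in the WT list (horizontal axis) and in the dKO list (vertical axis) of the 43 regions, with 0 where a list has no site; symbols give the kind of region and colors whether it was shared (gray), WT only (blue) or dKO only (orange). The solid line marks equal rank and the dashed lines 20 points on either side. The dKO-only sites lie at or below percentile 15.6, whereas the WT-only sites reach percentile 76.1 at *Tle4*, and among the shared sites the *Axin2* promoter is the point farthest below the line of equal rank.

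Sites found in 1 list only were of every kind. Of the WT sites, 2 of 8 at promoters of the listed genes were WT only, 2 of 9 at promoters of other genes (*Srp19* and *Tle6*), 4 of 9 in gene bodies and 3 of 11 in the flanks. Of the 6 shared promoter sites of the listed genes, only that of *Axin2* differed by 20 points or more, and both WT-only promoter sites, at *Axin2* and *Apc*, had a shared site of the same gene close by. Of the 6 dKO-only sites, 4 lay in the flanks, 2 in gene bodies and none at a promoter. Among the dKO-only sites the highest percentile was 15.6, and 8 of the 11 WT-only sites were below percentile 45. Over the series, too, sites of low rank were found in 1 list more often. Of WT sites under percentile 30, 53.7% were WT only, and of dKO sites under percentile 30, 32.7% were dKO only, beside 5.57% and 1.94% at percentile 70 or above. The share was 15.9% for WT and 4.57% for dKO sites within 1 kb of any start, and 35.1% and 21.4% elsewhere.

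The exact letters ATCAAAG were present at few of these sites. The paper instead scored its Tcf1 peaks with a matrix of base weights. Sequences that resemble the Tcf and Lef motif but differ from the letters searched were not counted here. ATCAAAG, searched on both strands within 100 bp of the summit, was found at 3 of 37 WT sites (8.11%), beside 3.81% of all WT sites, and at 3 of 32 dKO sites (9.38%), beside 2.42% of all dKO sites. With 3 sites in each list these shares are imprecise. The *Axin2* promoter and the *Aes* promoter held it in both lists, and both had a lower rank in dKO cells. Within promoter sites of the series ATCAAAG was found at 1.71% in WT and 1.53% in dKO cells. When the whole peak was searched, 5 sites in each list held it, namely those of the *Axin2*, *Tle1*, *Aes* and *Tle4* promoters and the site downstream of *Tle3*. Of these, the *Axin2*, *Tle1* and *Aes* promoters ranked lower in dKO cells, and the *Tle4* promoter and the *Tle3* site ranked higher. The matches of the *Tle4* promoter and the *Tle3* site did not lie fully within 100 bp of a summit. Whether the letters bear on rank was not tested.

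Other motifs were near their share in the whole lists or rested on few sites. AACAAAG, a variant that shares its last bases with ATCAAAG, was found at 1 WT site (2.70%, beside 4.60% of all WT sites), the WT-only one in intron 5 of *Tle4*, and at 0 dKO sites (beside 4.21%). The Ets core CCGGAAG was found at 4 sites in each list (10.8% of WT and 12.5% of dKO sites, beside 9% and 9.71%). The CTCF core was also found at 4 sites in each (10.8% and 12.5%, beside 11.7% and 11.3%). The Runx core TGTGGTT was found at 3 WT sites and 1 dKO site (8.11% and 3.12%, beside 9.67% and 10.6%).

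A list of 63 further genes of the Wnt pathway was examined in the same windows. They had 283 WT sites, of which 79 (27.9%) were WT only, and 225 dKO sites, of which 20 (8.89%) were dKO only. The first share was near the 27.6% of the whole list, and the second was below the 14.4% of the whole list. For receptors 21 of 52 WT sites were WT only, for secretion factors and extracellular inhibitors 7 of 23, for the cytoplasmic relay and destruction complex 19 of 84, for nuclear factors 22 of 98 and for targets 10 of 26. In the same order, 2 of 32, 0 of 17, 4 of 70, 11 of 87 and 3 of 19 dKO sites were dKO only. The nuclear factors include *Tcf7* and *Lef1*, the genes floxed in dKO mice. At *Tcf7*, 1 of 10 WT sites was WT only and 2 of 11 dKO sites were dKO only. At *Lef1* the counts were 7 of 15 and 3 of 11. The windows of *Aes* and *Tle6*, which are on this list, share sites with that of *Tle2*.

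A promoter site was called in WT cells for 34 of the 63 genes and in dKO cells for 24. No gene had one in dKO cells only, and 10 had one in WT cells only. These were *Fzd5*, *Fzd9*, *Notum*, *Wif1*, *Csnk1d*, *Lef1* (itself floxed in dKO mice), *Tcf7l1*, *Tle6*, *Cd44* and *Tnfrsf19*. Over the series, 15.9% of WT sites and 4.57% of dKO sites within 1 kb of a start were found in that list only, a share of sites and not of genes. The highest-ranked of these were *Tcf7l1*, another member of the Tcf family (percentile 63.9), *Notum*, an enzyme that inactivates Wnt ligands (60.4), and *Tnfrsf19*, a receptor of the TNF family (58.3). Of the 11 genes of the cytoplasmic relay and destruction complex with a promoter site in WT cells, 10 also had one in dKO cells. The promoter of the scaffold *Axin1* was at percentile 85.3 in the WT and 89.1 in the dKO list, that of the kinase *Gsk3b* at 57.6 and 58.6, and that of *Btrc*, which recognizes phosphorylated β-catenin, at 97.1 and 97.4. The promoter of *Axin1* thus did not share the difference found at *Axin2*. *Pygo2*, a nuclear partner of β-catenin, was at percentile 75.7 in the WT and 33.0 in the dKO list, and the receptor *Fzd7* at 62.6 and 85.2. The genes named in this paragraph were chosen after their values were seen.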

How the data were processed

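DNase-seq was analyzed in naïve CD8+ T cells of 3 WT and 2 dKO replicates. Per the methods and labels, the authors aligned reads to mm9 with Bowtie2 (version 2.2.5 in the submitters' processing notes), pooled the replicates of each genotype and ran MACS2 (version 2.1.1) on every pool without a control library. For each peak, the authors deposited a pileup, a signal that counts fragments over the summit and is not scaled. Fold enrichment as deposited is a ratio, the pileup plus 1 over the local background plus 1, which the authors' caller estimated over up to 10000 bp. The deposited −log10 p and −log10 q values are the caller's test of the summit against that background. Per the file headers, each pool was read from 2 copies of its file and the duplicate filter kept 1 of each fragment (83923734 of 167847468 in WT and 62242963 of 124485926 in dKO cells), with fragment sizes of 98 and 97 bp.

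Values from the pools are described without tests. Genes and starts were those of gencode for the mm9 build, and exons and introns were numbered along the first-named transcript of each gene (Tle4-201 and Nkd1-201, otherwise transcript 001). The background plus 1 was computed as the pileup plus 1 over the fold enrichment. Exact Poisson intervals of the pileup (95%) cover counting error only, and summits were chosen for their height. Pileups and intervals given at the depth of the other pool were scaled by the fragments kept only. All peaks were counted; named were sites within 1 kb of a start of a listed gene, the highest-ranked site of each locus, sites of 1 list only at percentile 50 or above (otherwise the highest), shared sites that differed by 20 points or more and sites with ATCAAAG. Further sites were named after their values were seen. The members, gene lists and rules were chosen with earlier results of these data known. All 63 further Wnt genes matched the annotation, Amer1 under the name Fam123b. Alternatives were a stricter fold enrichment or q, the lists as deposited, equal list sizes, other overlaps, windows, ranks and motif windows. Python 3.11.15 with pandas 2.3.3, numpy 2.4.6, scipy 1.17.1, pysam 0.24.0, samtools 1.23.1 and matplotlib 3.10.9 were used, and the overlap, rank and motif steps were tested on simulated data.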

Additional observations from a re-analysis of the deposited data

How the results depend on the processing

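With a minimum fold enrichment of 8, the 9 loci had 23 WT and 19 dKO sites, of which 5 were WT only and 1 dKO only. Of the 11 WT-only sites described above, 2 were still called at this limit, and of the 6 dKO-only sites 0. The rest were shared sites under the study's criteria whose peak in the other list fell under 8. The *Axin2* promoter was 1 of them, with fold enrichments of 9.38 in WT and 6.54 in dKO cells. Shares over the whole lists were not computed for the alternative settings. In lists limited to the 20000 peaks of highest −log10 p, 4 sites were WT only and 2 dKO only. Of these 2, 1 was among the 6 dKO-only sites described above. With q under 1e-10 there was 1 dKO-only site. Within 10 kb of the genes there were 23 WT and 19 dKO sites, 7 of them WT only and 3 dKO only, and within the gene bodies alone 13 and 9 sites, with 6 and 2. Ranks by −log10 p gave median percentiles of 57.8 (WT) and 52.9 (dKO) and a median difference at shared sites of −4.81; ranks by pileup gave 61.9, 48.2 and −4.61, and with them 4 sites were lower by 20 points or more. On the ratio of pileups, centred on all shared sites, the median was −0.087 (log2) and 0 sites passed a 2-fold decrease; in lists of 20000 peaks it was 2.57 points, with 1 site past 20 points in each direction. ATCAAAG was found at 2 WT sites and 1 dKO site within 50 bp of the summit and at 5 WT and 5 dKO sites in whole peaks.

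The *Axin2* promoter was lower in dKO cells under all 4 alternatives, with differences of −36.7 points by −log10 p, −42.1 by pileup, −26.2 in lists of 20000 peaks and −0.77 on the log2 scale. The *Tle4* intron 4 site and the site upstream of *Tle2* were WT only in 6 of 6 alternatives, and the *Axin2* intron 1 site in 5 of 6, since its fold enrichment of 7.92 is under 8. With the lists as deposited, the dKO-only sites at *Myc* and in intron 8 of *Tle4* became shared. The median difference was thus positive in lists of 20000 peaks and negative under the other settings. The stricter settings call fewer sites by construction; the cause of the other shifts was not tested.

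No paired analysis was possible because the replicates were pooled before peaks were called, and for the same reason no replicate was left out in turn. Depth limits the weakest calls: the lowest pileup of a called site was 21 fragments in WT and 16 in dKO cells.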
